A study of Ovis aries with 32 samples.

Results

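The genes described here are PRSS35, COLEC12, EPB41L3, CPM, SORL1, SCUBE2 and P3H2, 7 of the 21271 genes in the table, with 18 of its 35219 transcripts. They were chosen by their large change between preadipocytes and differentiated adipocytes in these same libraries, so that the change itself is given below as a description with no test. PRSS35, COLEC12 and EPB41L3 were lower after differentiation, and CPM, SORL1, SCUBE2 and P3H2 were higher. Nothing in the labels says that the libraries of a group came from separate animals, so the p-values below measure the spread between these libraries, which may be in part technical. Differences with growth restriction and with sex were not used to choose them and were tested. No gene of the 7 was called in any of those tests.

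RNA was sequenced from perirenal preadipocytes of near-term fetal sheep (crossbred Columbia-Rambouillet, singleton pregnancies) and from adipocytes that were differentiated in culture. Growth-restricted fetuses came from ewes held in a hot environment in early to mid gestation, which limits the placenta, and control fetuses came from pair-fed ewes at ordinary temperature. The 8 groups hold 4 libraries each, 32 in all. Preadipocytes are MC and FC (control male and female) and MFGR and FFGR (growth-restricted male and female), and their differentiated counterparts are MCD, FCD, MFGRD and FFGRD. The labels name the samples as perirenal cells, although their RNA protocol speaks of thawed adipose tissue. A sample is described here as the label names it, and a library is a bulk measurement of a whole culture in which fewer cells of a type and less RNA per cell cannot be told apart. How the cultures were differentiated, and whether libraries with the same number came from the same fetus, is not given in the sources used here.

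Differentiation turns a fibroblast-like cell into a cell that stores fat, and it changes the surface and the surroundings of the cell as well as its lipid metabolism. Preadipocytes lie in a matrix of fibrillar collagen, whereas a mature adipocyte is wrapped in a basement membrane built on type IV collagen, and secreted proteases, surface peptidases and scavenger receptors act in that space. The 7 genes belong mostly to this surface and matrix layer. PRSS35 encodes a secreted protein of the trypsin-like serine protease family, COLEC12 a membrane collectin that binds sugars and modified lipoproteins, and EPB41L3 (protein 4.1B) an adaptor between membrane proteins and the spectrin-actin skeleton. CPM is carboxypeptidase M, a membrane-anchored enzyme that removes basic residues from the ends of peptides, and SORL1 is a sorting receptor that moves proteins, among them the insulin receptor, between endosomes and the Golgi. SCUBE2 is a secreted protein that helps to release lipid-modified Hedgehog from cells, and P3H2 is a prolyl hydroxylase of the endoplasmic reticulum that acts on type IV collagen.

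Values are normalized reads summed over the transcripts of a gene, as deposited by the authors. They sum to between 9.52 and 21.22 M per library, from approximately 7.92 to 21.34 M reads, and a value of 10 stands for 5.6 to 14.4 reads. Of 9 adipocyte markers, 9 rose with differentiation in the limma fit, and the defining markers of the stage did not reach the same level in every library. ADIPOQ (adiponectin) lay between 0 and 216 in preadipocytes and between 8.59 and 13421 after differentiation. The low end was FCD replicate 4, at 8.59 for ADIPOQ and 215 for FABP4, and the highest preadipocyte library was FFGR replicate 3, at 216 and 445. Of the 8 preadipocyte or fibroblast markers 7 were tested, of which PDGFRB and LUM fell (medians 2330 to 1161 and 21382 to 13093) and THY1 rose (539 to 1218), while PDGFRA, COL1A1, COL1A2 and COL3A1 were not called. PDGFRA, a surface receptor of preadipocytes, ranged from 1022 to 20644 before and from 935 to 25771 after differentiation, the summed level of the list from 205755 to 1724470 and from 118229 to 1661420, and DLK1 was listed at 0 in 14 of 16 and 11 of 16 libraries. Of the 5 smooth muscle genes 4 fell (summed level 7932 to 73265 before, 900 to 20383 after), and of the adrenal and kidney genes 4 were tested and 4 rose (summed level 1.39 to 89.0 before, 12.8 to 2037 after). Of these, UMOD and AQP2, which mark the kidney, were at 0 throughout, and CYP17A1 and HSD3B1 of the adrenal cortex were at 0 in all 16 preadipocyte libraries. Endothelial (5.84 to 287), macrophage (26.6 to 705) and mesothelial (0 to 1563) genes had low summed levels in most libraries of either stage, with CLDN5 at 0 in 30 of 32 libraries. Of the endothelial genes 4 were tested and 1 fell, and of the mesothelial genes 2 were tested and none was called. The 1 macrophage gene tested, CD14, rose (medians 40.9 to 114). The other macrophage genes in the table had medians of at most 1.04 at either stage. The part of other cell types in the values of the 7 genes was not tested.

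**Figure D1:**
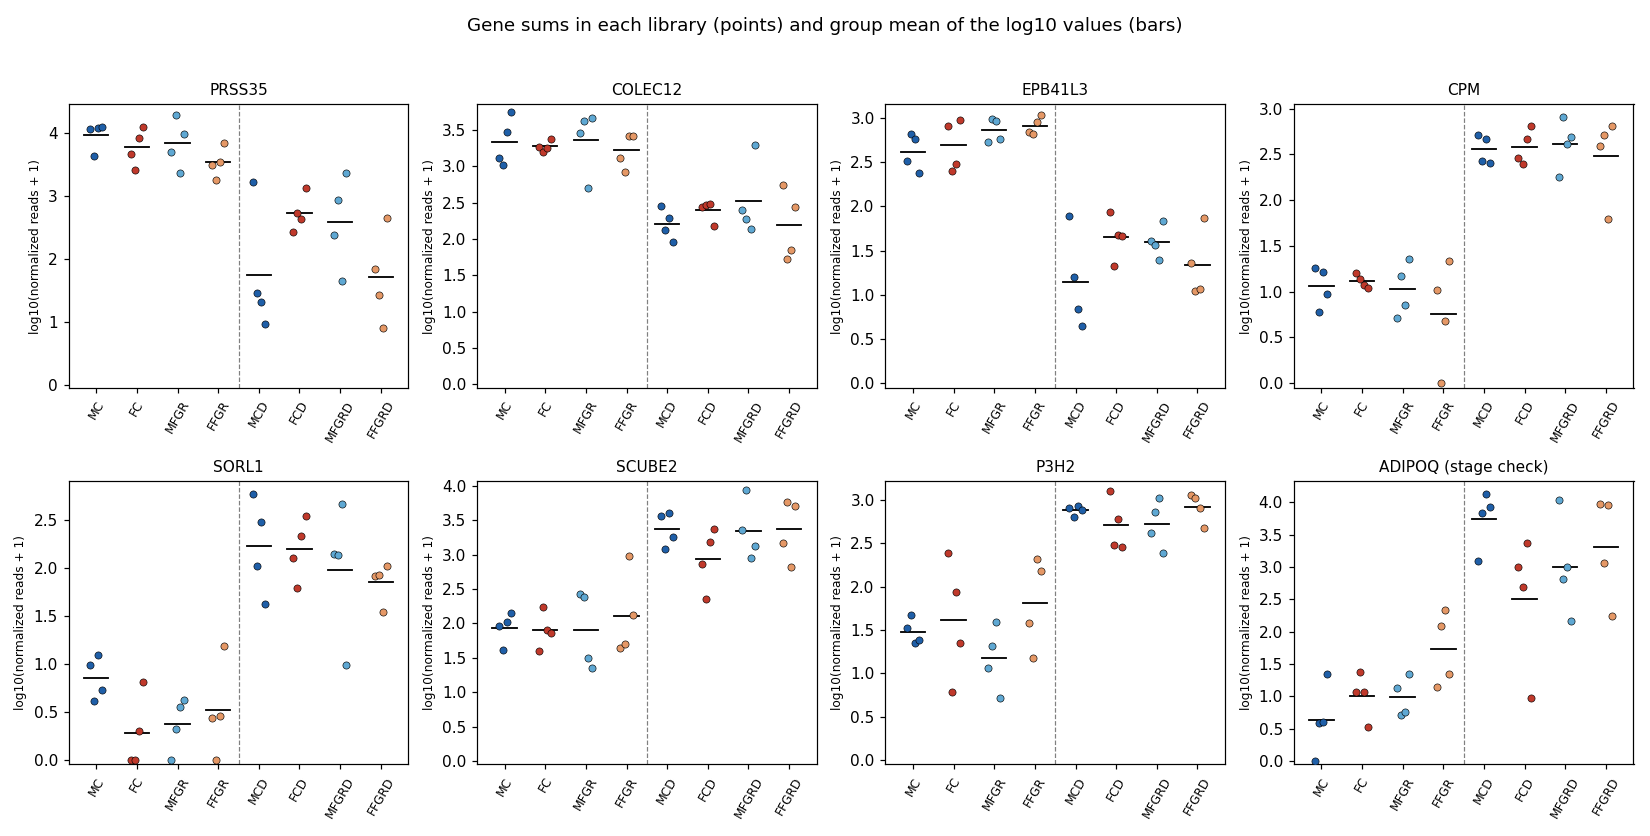
Gene sums of the 7 genes and of ADIPOQ in each of the 32 libraries, on a log10(normalized reads + 1) axis, with groups on the horizontal axis, preadipocytes left of the dashed line and differentiated cells right of it. Points are libraries and bars are the mean of the log10 values in a group of 4. The stages do not overlap for EPB41L3 and CPM, and MFGRD replicate 4 lies at 2299 for PRSS35 and 1943 for COLEC12, nearer to the preadipocytes than the other MFGRD libraries. The 7 genes were chosen on this contrast, and the share of all genes without overlap over the 32 libraries was not counted.

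PRSS35 (ENSOARG00020017736, chromosome 8, 12032677 to 12033915 in Oar_rambouillet_v1.0) is annotated with 1 transcript over a span of 1239 bases. Replicates 1 to 4 were at 11360, 4318, 11840 and 12480 in MC and at 1653, 27.7, 19.7 and 8.12 in MCD. In female controls they were at 4639, 2590, 8446 and 12310 in FC and at 263, 533, 424 and 1327 in FCD. Neither pair of groups overlapped, and MCD replicate 1 held far more PRSS35 than the other MCD libraries. MFGR had values of 5064, 19390, 2276 and 9734 against 242, 872, 43.5 and 2299 in MFGRD. FFGR had values of 3104, 1789, 3505 and 6913 against 68.8, 25.9, 7.08 and 444 in FFGRD. The growth-restricted males overlapped through MFGRD replicate 4, which exceeded MFGR replicate 3, while the growth-restricted females did not overlap. The means ran from 9999 ± 3816 (SD, n = 4) in MC through MFGR, FC, FFGR, MFGRD, FCD and MCD down to 136 ± 207 (SD, n = 4) in FFGRD, and each group in this order overlapped its neighbour.

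COLEC12 (ENSOARG00020008142, chromosome 23, 40023036 to 40200729) is also annotated with 1 transcript. Its gene sum was 1301, 1027, 2929 and 5682 in MC and 281, 131, 195 and 90.9 in MCD. It was 1836, 1585, 1806 and 2366 in FC and 273, 297, 301 and 150.0 in FCD. The control groups of either sex were apart, and FC was the tightest group of this gene, with an SD of 0.24 on the log2 scale. MFGR lay at 2839, 4254, 498 and 4566 and MFGRD at 253, 189, 138 and 1943. FFGR lay at 1321, 842, 2612 and 2610 and FFGRD at 548, 52.1, 69.2 and 278. MFGRD replicate 4 was again the differentiated library inside the preadipocyte range, above 498 in MFGR replicate 3. The largest group mean was 3039 ± 1853 (SD, n = 4) in MFGR and the smallest 174 ± 82.9 (SD, n = 4) in MCD, with overlap between all neighbours in the order of means.

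EPB41L3 (ENSOARG00020015184, chromosome 23, 44049072 to 44139564) was the gene of the 3 with the clearest separation, since all 16 preadipocyte libraries (237 to 1078) exceeded all 16 differentiated libraries (3.48 to 84.8). The gene sum was 322, 647, 572 and 237 in MC and 76.5, 14.7, 5.87 and 3.48 in MCD. It was 798, 251, 301 and 942 in FC and 84.8, 20.4, 46.4 and 45.1 in FCD. MCD replicate 1, high for PRSS35, was also the highest MCD library for EPB41L3. The growth-restricted males were at 535, 962, 921 and 578 in MFGR and at 39.4, 35.2, 24.0 and 67.2 in MFGRD. The growth-restricted females were at 684, 660, 902 and 1078 in FFGR and at 22.1, 10.1, 10.5 and 72.3 in FFGRD. Within a stage the neighbours in the order of means overlapped, and FC, MC and the other preadipocyte groups lay apart from the differentiated groups.

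CPM (ENSOARG00020003311, chromosome 3, 161977094 to 162049455), with 1 transcript, was close to the limit of detection in preadipocytes and clearly present after differentiation. The gene sum was 17.1, 5.03, 15.2 and 8.54 in MC and 520, 266, 470 and 251 in MCD. It was 15.1, 12.8, 10.9 and 10.1 in FC and 285, 251, 464 and 643 in FCD. Every differentiated control library was more than the highest preadipocyte library of the series, 22 in MFGR replicate 4. MFGR had values of 4.17, 14.0, 6.13 and 22 against 177, 799, 409 and 485 in MFGRD. FFGR had values of 9.44, 0, 3.78 and 20.7 against 393, 513, 61.3 and 649 in FFGRD. The lowest differentiated library, FFGRD replicate 3, was still above all preadipocyte libraries, and the libraries of the 4 differentiated groups overlapped, with means between 377 and 468.

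SORL1 (ENSOARG00020019410, chromosome 15, 34886888 to 35048551), with 1 transcript, was listed at 0 in 4 of the 16 preadipocyte libraries and did not exceed 14.3 in the others. The gene sum was 8.58, 3.07, 11.3 and 4.33 in MC and 586, 103, 301 and 40.9 in MCD. It was 0, 0, 1.00 and 5.39 in FC and 126, 60.2, 213 and 345 in FCD. The level in differentiated controls varied widely between libraries, yet no library came down to the preadipocyte values. MFGR was at 0, 1.09, 2.50 and 3.20 and MFGRD at 138, 133, 458 and 8.61. FFGR was at 1.69, 0, 1.88 and 14.3 and FFGRD at 80.2, 83.7, 33.9 and 104. MFGRD replicate 4 was the lowest differentiated library and lay below MC replicate 3 and FFGR replicate 4, although above every MFGR library. Because the preadipocyte values are a few reads, the size of the change in SORL1 and CPM depends on the constant added before taking logarithms.

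SCUBE2 (ENSOARG00020018704, chromosome 15, 46647469 to 46717385) was measured in every library. The gene sum was 89.4, 39.7, 105 and 139 in MC and 3601, 1202, 4071 and 1809 in MCD. It was 38.5, 169, 78.6 and 72.5 in FC and 737, 223, 1501 and 2344 in FCD. The controls were apart in both sexes, with FCD replicate 2 the lowest differentiated library. MFGR was at 263, 239, 29.9 and 21.2 and MFGRD at 2277, 8786, 894 and 1332. FFGR was at 43.2, 48.7, 943 and 130.0 and FFGRD at 1452, 5842, 666 and 5158. FFGR replicate 3, the preadipocyte library with the highest ADIPOQ, held 943 and exceeded FFGRD replicate 3, so that the growth-restricted females overlapped for this gene alone among the 7. Neighbouring groups in the order of means overlapped, from 3322 ± 3688 (SD, n = 4) in MFGRD to 89.7 ± 55.9 (SD, n = 4) in FC.

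P3H2 (ENSOARG00020024146, chromosome 1, 215627133 to 215804359) had the most uniform level after differentiation of the 7 genes, with a ratio of 5.23 between the highest and the lowest of the 16 libraries, against 13 for CPM and 325 for PRSS35. The gene sum was 31.8, 45.7, 21.5 and 23.0 in MC and 794, 638, 846 and 763 in MCD. It was 244, 5.09, 84.5 and 21.6 in FC and 1258, 302, 604 and 286 in FCD. MCD was tight (760 ± 88.4, SD, n = 4), whereas FC spread from 5.09 to 244. MFGR was at 10.5, 19.5, 38.4 and 4.24 and MFGRD at 415, 727, 1036 and 240. FFGR was at 37.3, 13.9, 209 and 149 and FFGRD at 1145, 1059, 797 and 474. The 4 pairs of groups were apart, and over all libraries only FC replicate 1 (244) and MFGRD replicate 4 (240) crossed.

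Counted over the 4 differentiation comparisons, groups without overlap were frequent among these genes, which the way they were selected on this contrast would give. Between MCD and MC the groups did not overlap for 7 of 7 genes, 4 higher and 3 lower, where 7.59% of all genes tested were higher and 8.46% lower without overlap. Between FCD and FC it was also 7 of 7, with backgrounds of 4.95% and 5.15%. Between MFGRD and MFGR it was 5 of 7, 4 higher and 1 lower, with backgrounds of 4.84% and 6.31%, and it was 7 of 7 without MFGRD replicate 4. Between FFGRD and FFGR it was 6 of 7, 3 higher and 3 lower, with backgrounds of 5.01% and 6.3%, and 7 of 7 without FFGR replicate 3. These backgrounds hold the genes that reached 10 normalized reads in 4 or more of the 8 libraries compared. All 7 did so except SORL1 between MFGRD and MFGR.

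**Figure D2:**
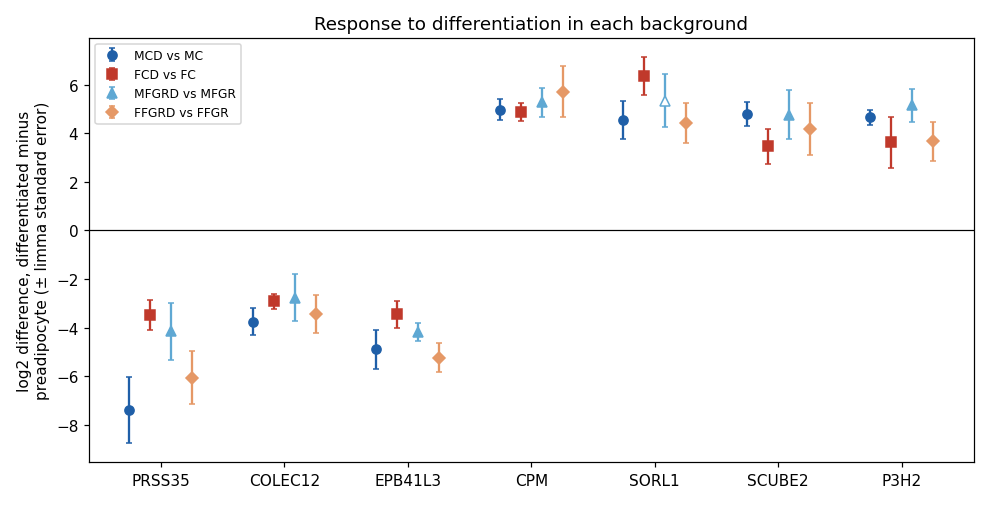
Difference between differentiated cells and preadipocytes for each gene and background, as log2(normalized reads + 1) with the limma standard error. Symbols are the 4 backgrounds of 8 libraries each, and the open symbol is SORL1 in growth-restricted males, which did not pass the filter on low values. PRSS35 has the widest range of estimates, from -7.40 to -3.49.

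On the log2(value + 1) scale the mean of the 4 responses was -5.27 ± 0.63 (standard error) for PRSS35, or 38.7-fold lower, -4.44 ± 0.33 for EPB41L3, or 21.7-fold lower, and -3.22 ± 0.39 for COLEC12, or 9.30-fold lower. It was 5.21 ± 0.36 for CPM, 5.17 ± 0.48 for SORL1, 4.30 ± 0.48 for SCUBE2 and 4.27 ± 0.42 for P3H2. By size among 12737 genes, PRSS35 ranked 37, CPM 40, SORL1 42, EPB41L3 75, SCUBE2 88, P3H2 91 and COLEC12 246. These ranks restate the choice of the genes.

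The response of PRSS35 was -7.40 ± 1.36 between MCD and MC, -3.49 ± 0.60 between FCD and FC, -4.15 ± 1.16 between MFGRD and MFGR and -6.06 ± 1.10 between FFGRD and FFGR. The other 6 genes had narrower ranges over the backgrounds, from -3.76 to -2.76 for COLEC12, -5.24 to -3.45 for EPB41L3, 4.87 to 5.71 for CPM, 3.46 to 4.79 for SCUBE2 and 3.62 to 5.14 for P3H2. SORL1 ranged from 4.43 between FFGRD and FFGR to 6.36 between FCD and FC, and it was 5.34 ± 1.08 between MFGRD and MFGR when fitted without the filter. Leaving out 1 library at a time moved 16 of the 27 responses by more than 1.5-fold, in both directions, and reversed none.

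Single libraries moved PRSS35 most. Its response between MCD and MC was -9.04 without MCD replicate 1 and -6.54 without MCD replicate 4, that between MFGRD and MFGR was -5.01 without MFGRD replicate 4 and -3.12 without MFGRD replicate 3, and that between FFGRD and FFGR was -7.11 without FFGRD replicate 4 and -5.18 without FFGRD replicate 3. COLEC12 was at -3.60 without MFGRD replicate 4 and -3.50 without MFGR replicate 3 in growth-restricted males, and at -4.04 without FFGRD replicate 1 in growth-restricted females. EPB41L3 was at -5.71 between MCD and MC without MCD replicate 1 and at -5.83 between FFGRD and FFGR without FFGRD replicate 4. These 3 genes kept their direction in each of these fits.

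Among the genes that were higher, P3H2 between FCD and FC was at 4.48 without FC replicate 1 and 2.70 without FC replicate 2, and between FFGRD and FFGR at 2.95 without FFGR replicate 2. CPM between FFGRD and FFGR was at 4.87 without FFGR replicate 2, 6.35 without FFGR replicate 4 and 6.47 without FFGRD replicate 3. SCUBE2 was at 4.12 between FCD and FC without FCD replicate 2, at 4.14 and 4.103 between MFGRD and MFGR without MFGR replicate 4 and MFGRD replicate 2, and at 5.14 and 4.78 between FFGRD and FFGR without FFGR replicate 3 and FFGRD replicate 3. SORL1 was at 3.95 and 5.22 between MCD and MC without MCD replicates 1 and 4, at 6.94 between FCD and FC without FC replicate 4 and at 5.16 between FFGRD and FFGR without FFGR replicate 4. Without FCD replicate 4, the library with little ADIPOQ, the response in female controls was -3.93 for PRSS35 and 2.99 for SCUBE2, both within 1.5-fold of the full fit.

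Several of these genes are annotated with more than 1 transcript, and reads were shared among transcripts by Salmon. For EPB41L3, 8 transcripts were listed. EPB41L3-204 and EPB41L3-205 held 53.5% and 43.5% of the sum over 32 libraries, EPB41L3-202 and EPB41L3-203 were at 0 throughout, and the remaining 4 held little. In preadipocytes the share of EPB41L3-204 lay between 36.6% and 73.9% of the gene in every library, with values of 134, 401, 376 and 176 in MC, 292, 153, 207 and 555 in FC, 269, 401, 502 and 374 in MFGR and 348, 406, 426 and 595 in FFGR. After differentiation EPB41L3-204 was at 46.1, 0, 0 and 0 in MCD, 45.4, 14.5, 35.6 and 27.5 in FCD, 0, 23.5, 20.1 and 25 in MFGRD and 0, 10.1, 0 and 0 in FFGRD. It was thus above 0 in 9 of 16 differentiated libraries, including all 4 of FCD.

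EPB41L3-205 was at 169, 221, 187 and 56.1 in MC, 480, 92.9, 89.6 and 378 in FC, 255, 547, 379 and 191 in MFGR and 331, 253, 467 and 464 in FFGR. It was at 28.1, 0, 0 and 0 in MCD, 37.8, 5.81, 8.62 and 17.6 in FCD, 7.18, 11.8, 0 and 40.5 in MFGRD and 11.1, 0, 10.5 and 35.8 in FFGRD. EPB41L3-208, whose annotated start differs from that of the other 7 transcripts (44049354 in place of 44049072), was at 0 in all 16 preadipocyte libraries and above 0 in 5 differentiated libraries, up to 30.5. Where the gene sum was low, a transcript could hold the whole of it in a library (as EPB41L3-206 and EPB41L3-208 did), and the division between transcripts of nearly the same span is uncertain.

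P3H2 has 2 transcripts, P3H2-201 with 45.3% and P3H2-202 with 54.7% of the sum. After differentiation both were present in all 16 libraries, and the share of P3H2-201 lay between 37.1% and 59.5%. P3H2-201 was at 337, 379, 484 and 298 in MCD, 570, 139, 254 and 113 in FCD, 212, 325, 384 and 102 in MFGRD and 528, 431, 362 and 217 in FFGRD. P3H2-202 was at 456, 258, 362 and 464 in MCD, 687, 162, 350 and 174 in FCD, 203, 401, 652 and 138 in MFGRD and 617, 628, 435 and 257 in FFGRD. The transcripts thus kept to a narrow ratio while the level varied.

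In preadipocytes P3H2-201 was above 0 in 15 libraries, at 12.2, 14.2, 21.5 and 23.0 in MC, 88.2, 0, 30.9 and 8.49 in FC, 10.5, 3.26, 7.45 and 4.24 in MFGR and 37.3, 4.17, 120 and 64.3 in FFGR. P3H2-202 was above 0 in 11 libraries, at 19.6, 31.5, 0 and 0 in MC, 155, 5.09, 53.7 and 13.1 in FC, 0, 16.3, 30.9 and 0 in MFGR and 0, 9.74, 88.4 and 84.8 in FFGR. With so few reads a value of 0 for either transcript does not show its absence.

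SCUBE2 has 4 transcripts. SCUBE2-201 held 44.7% of the sum, SCUBE2-204 37.5%, SCUBE2-203 17.6% and SCUBE2-202 0.206%. SCUBE2-201 was at 71.0, 39.7, 35.8 and 61.9 in MC, 0, 137, 43.8 and 0 in FC, 61.4, 99.0, 0 and 0 in MFGR and 0, 0, 252 and 40.0 in FFGR. After differentiation it was at 1847, 846, 1454 and 861 in MCD, 424, 192, 750 and 857 in FCD, 1259, 3966, 329 and 408 in MFGRD and 646, 2568, 323 and 2241 in FFGRD. It was above 0 in 10 of 16 preadipocyte and in all 16 differentiated libraries.

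SCUBE2-204 was at 18.4, 0, 37.8 and 77.5 in MC, 11.0, 31.8, 21.9 and 31.6 in FC, 132, 122, 0 and 13.8 in MFGR and 21.2, 20.9, 511 and 59.0 in FFGR. After differentiation it was at 1079, 172, 1615 and 719 in MCD, 234, 19.3, 604 and 916 in FCD, 695, 3300, 373 and 588 in MFGRD and 573, 2409, 240 and 1997 in FFGRD. SCUBE2-202 was above 0 in 4 preadipocyte libraries and in no differentiated library, with a highest value of 29.9.

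**Figure D3:**
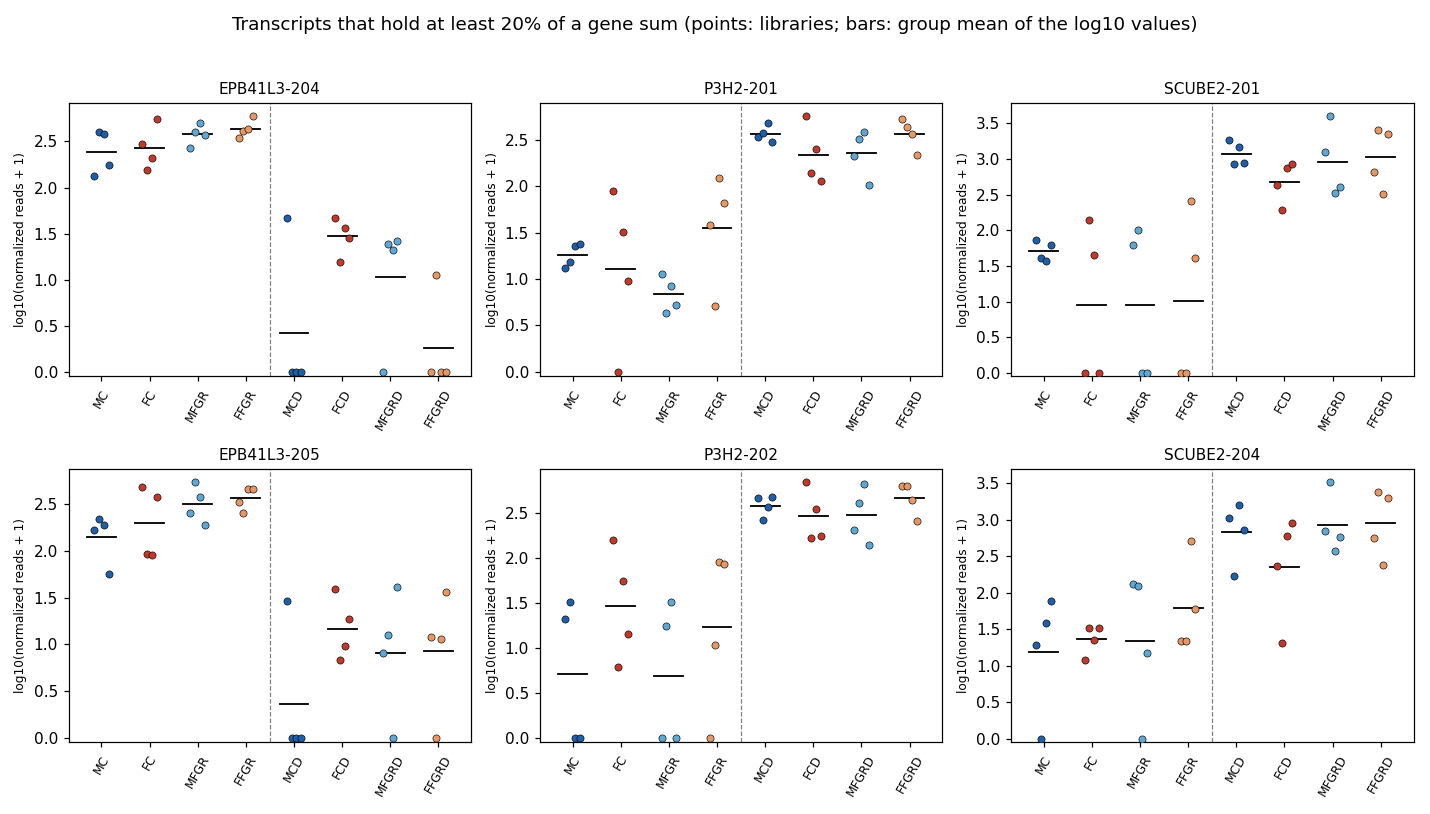
Transcripts that hold at least 20% of a gene sum for the genes with several transcripts, in each of the 32 libraries, on a log10(normalized reads + 1) axis by group. Points are libraries and bars the mean of the log10 values of a group. EPB41L3-204 lies at 0 in 3 of 4 MCD and 3 of 4 FFGRD libraries and above 0 in all 4 FCD libraries.

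Whether growth restriction changed these genes was tested between MFGR and MC, FFGR and FC, MFGRD and MCD, and FFGRD and FCD, and over both sexes within each stage. Limma called none of the 7 genes and no gene at all in any of these 6 comparisons (0% of the genes tested in each, at an adjusted p below 0.05 and a fold change above 1.5). At an unadjusted p below 0.05 there were 2 of 39 tests of the 7 genes (5.13%), and 87 to 342 genes in a comparison. Over the 6 comparisons these were 1.4% of the 70531 tests of all genes. The smallest unadjusted p was that of PRSS35 between FFGRD and FCD. FFGRD was at 68.8, 25.9, 7.08 and 444 and FCD at 263, 533, 424 and 1327, and the groups overlapped through FFGRD replicate 4. The log2 difference was -3.38 ± 1.10 (limma, unadjusted p = 0.0134, adjusted p = 1.00), lower than the lowest FCD library in 3 of 4 FFGRD libraries. It ran from -4.42 without FFGRD replicate 4 to -2.50 without FFGRD replicate 3.

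EPB41L3 was the other gene with an unadjusted p below 0.05 for growth restriction, in preadipocytes of both sexes. The 8 growth-restricted libraries ranged from 535 to 1078 and the 8 control libraries from 237 to 942, and the log2 difference was 0.78 ± 0.30 (limma, unadjusted p = 0.0211, adjusted p = 0.812). Over both sexes the other estimates in preadipocytes were -0.62 ± 0.45 for PRSS35, -0.05 ± 0.46 for COLEC12, -0.65 ± 0.56 for CPM, 0.31 ± 0.68 for SCUBE2 and -0.18 ± 0.74 for P3H2. SORL1 was below the filter. In differentiated cells they lay between -0.97 ± 0.69 for SORL1 and 0.65 ± 0.62 for SCUBE2. A missed threshold does not show that the groups were alike, since a difference of 1 or more on the log2 scale lay within 2 standard errors of most of these estimates.

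**Figure D4:**
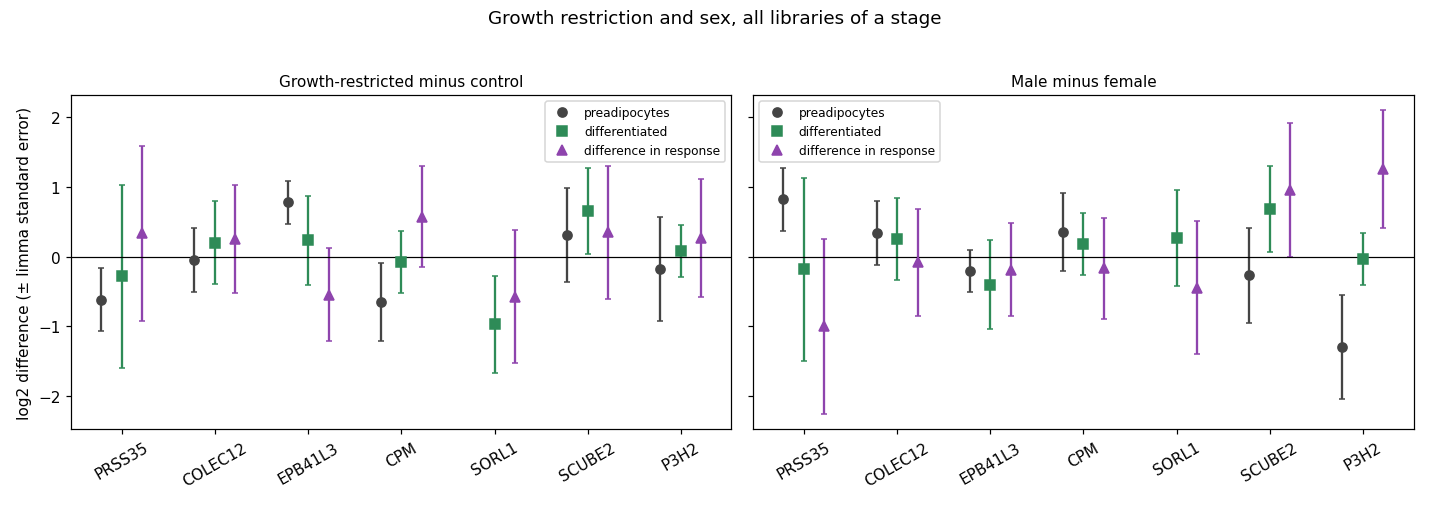
Log2 differences with limma standard errors for growth restriction (left) and sex (right) in preadipocytes (16 libraries), in differentiated cells (16 libraries) and for the difference in response (32 libraries). Of the 40 estimates shown 3 exceed 1 in size, and none was called.

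Sex was tested between MC and FC, MFGR and FFGR, MCD and FCD, MFGRD and FFGRD, and over control and growth-restricted libraries within each stage. Again limma called none of the 7 genes and 0% of all genes in each of the 6 comparisons. At an unadjusted p below 0.05 there were 1 of 38 tests of the 7 genes (2.63%) and 37 to 538 genes in a comparison. The latter were 1.99% of the 70489 tests of all genes. The smallest was PRSS35 between MCD and FCD, with a log2 difference of -3.28 ± 1.38 (limma, unadjusted p = 0.0396, adjusted p = 0.873). MCD replicate 1 (1653) was above all FCD libraries and the other 3 MCD libraries were below all of them. The difference ran from -4.92 without MCD replicate 1 to -2.42 without MCD replicate 4, and it was -2.43 with the span slope described below as a covariate (adjusted p between 0.113 and 1.00 over the alternatives). Over all preadipocytes P3H2 had the largest estimate between the sexes, -1.29 ± 0.74 for male against female (adjusted p = 0.818), and over differentiated cells SCUBE2 had 0.69 ± 0.62 (adjusted p = 1.00).

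The difference between 2 responses to differentiation was tested for MFGR against MC, FFGR against FC, MC against FC and MFGR against FFGR, and over all libraries for growth restriction and for sex. None of the 7 genes and 0% of all genes were called by limma in each of these 6 comparisons. An unadjusted p below 0.05 was found in 1 of 42 tests of the 7 genes (2.38%) and for 40 to 211 genes in a comparison. The latter were 0.999% of the 74442 tests of all genes. The response of PRSS35 was more negative in MC than in FC (log2 difference -3.91 ± 1.64, limma unadjusted p = 0.0302, adjusted p = 0.885), and it ran from -5.55 without MCD replicate 1 to -3.05 without MCD replicate 4, with -3.03 under the span slope as a covariate (adjusted p between 0.126 and 1.00 over the alternatives). For growth restriction over both sexes the estimates ranged from -0.57 ± 0.95 for SORL1 to 0.57 ± 0.73 for CPM.

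For single transcripts, 12 of the 18 passed the filter in at least 1 comparison. None was called in 190 tests, and 11 had an unadjusted p below 0.05. Among all transcripts up to 7 were called in a comparison (7 of 15891 between MFGR and FFGR). From 115 of 15848 (MFGRD and FFGRD) to 831 of 17687 (male and female preadipocytes) had an unadjusted p below 0.05. The smallest p of the 190 tests was that of EPB41L3-204 in the response of FFGR against that of FC (log2 difference -4.71 ± 1.02, limma unadjusted p = 0.000356, adjusted p = 1.00). FFGRD replicate 2 was the only library of that group in which EPB41L3-204 was above 0. Without it all remaining FFGRD libraries were at 0, and the transcript was called at -5.58 ± 0.69 (limma adjusted p = 0.0280). This call thus depends on which library was left out. The gene sum of EPB41L3 in the same comparison had -1.79 ± 0.86 (adjusted p = 1.00).

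The differentiated libraries differed widely in ADIPOQ, and each of the 7 genes was related to ADIPOQ within the 4 differentiated groups, a measure that does not use the contrast of stages. In limma no gene of the 7 passed an adjusted p of 0.05, against 1.99% of the 12068 genes tested. At an unadjusted p below 0.05 there were 2 of the 7, and 1595 of the 12068 genes. PRSS35 was lower by 0.56 ± 0.19 on the log2 scale for each doubling of ADIPOQ + 1 (unadjusted p = 0.0104, adjusted p = 0.206). In 4 of 4 differentiated groups the library with the least ADIPOQ held the most PRSS35: MCD replicate 1 (1653), FCD replicate 4 (1327), MFGRD replicate 4 (2299) and FFGRD replicate 4 (444). That library also held the most EPB41L3, CPM and SORL1 in 3 of 4 groups each. For COLEC12 it did so in 2 groups, for SCUBE2 in 1 and for P3H2 in 0. The share of all genes with this pattern was not counted.

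CPM had a slope of -0.22 ± 0.08 on ADIPOQ (limma, unadjusted p = 0.0163, adjusted p = 0.254), so that its level did not rise with ADIPOQ among differentiated libraries. The slopes on ADIPOQ were fitted without the span slope described below, to which PRSS35 and CPM were also related. FCD replicate 4 with 8.59 of ADIPOQ had the highest CPM of FCD, at 643. The same library had the highest SORL1 (345) and SCUBE2 (2344) and the lowest P3H2 (286) of FCD. P3H2 was the gene of the 7 with a positive slope, 0.14 ± 0.07 (unadjusted p = 0.0677, adjusted p = 0.406), and the library with the least ADIPOQ held the least P3H2 in 3 of 4 groups. The slopes of EPB41L3 (-0.18 ± 0.12), SCUBE2 (-0.20 ± 0.12), COLEC12 (-0.06 ± 0.12) and SORL1 (-0.04 ± 0.16) had unadjusted p-values of 0.132 or above in limma.

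**Figure D5:**
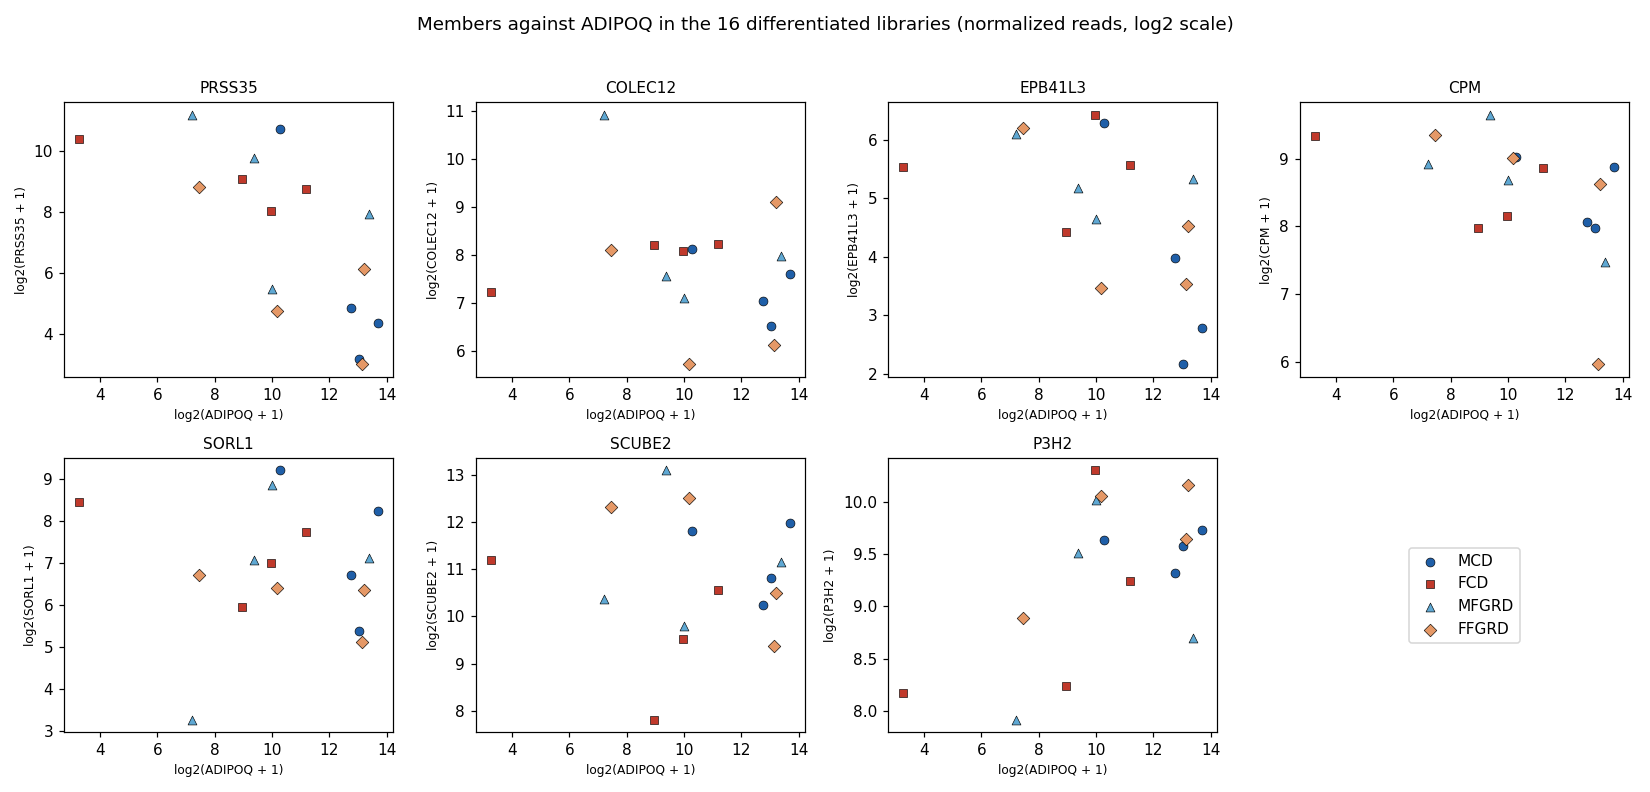
Each gene against ADIPOQ in the 16 differentiated libraries, on log2(normalized reads + 1) axes, with a symbol for each group. In every group the library farthest to the left is the highest for PRSS35, and CPM keeps a level of 643 in the FCD library with an ADIPOQ of 8.59.

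A library's values can also lean toward genes that span little or much of the genome. This was measured as the slope of log2 values on log10 of the genomic span of a transcript, which ranged from -1.06 to 0.40 and was negative in 5 preadipocyte and 5 differentiated libraries. With the 8 groups in the model, 5 of the 7 genes (CPM, SORL1, EPB41L3, PRSS35 and P3H2) were related to this slope at an adjusted p below 0.05, where 69.5% of all 12737 genes were, a share close to that of the 7. CPM had the smallest adjusted p (1.61 ± 0.28 log2 units per unit of slope, limma adjusted p = 1.16e-05). Among differentiated cells CPM was at 61.3 to 266 in the 5 libraries with a negative slope and at 285 to 799 in the 11 with a positive slope. These ranges did not overlap, and the share of all genes without such overlap was not counted. SCUBE2 (0.05 ± 0.56, adjusted p = 0.943) and COLEC12 (0.43 ± 0.44, adjusted p = 0.391) had no call. The library with the least ADIPOQ of each differentiated group had a positive slope. These were MCD replicate 1 (0.37), FCD replicate 4 (0.16), MFGRD replicate 4 (0.23) and FFGRD replicate 4 (0.32). ADIPOQ in the differentiated libraries with a negative slope was 6933 and 8436 in MCD, 497 in FCD, 10710 in MFGRD and 8954 in FFGRD. The part of this slope in the differences described above was tested only as a covariate, and with it in the model the 7 genes were still not called for growth restriction, sex or response.

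The genes most alike to each of the 7 were found by Pearson's r of log2(value + 1) after the 8 group means were removed, over 32 libraries and 9727 genes. The points share library, depth and span slope, and r is a description. PRSS35 was most like DNM1 (0.83) and C3 (0.82), the central component of complement, and COLEC12 most like FAP (0.88), a surface serine protease of activated fibroblasts, and JAZF1 (0.75). EPB41L3 was most like ZNF532 (0.79) and PTK7 (0.71), and CPM like EDC4 (0.87) and BCL6 (0.87), a transcriptional repressor. SORL1 was most like ELMO1 (0.71) and ADAM12 (0.70), SCUBE2 like PDGFD (0.78), a growth factor, and METTL24 (0.72), and P3H2 like DCBLD1 (0.76) and PLCB3 (0.72). Among the 7 themselves the highest r was between PRSS35 and EPB41L3 (0.70), followed by PRSS35 and COLEC12 (0.62), all lower after differentiation. The third pair of these genes, EPB41L3 and COLEC12, had 0.34. PRSS35 and CPM, which changed in opposite directions, had 0.51, and CPM and SORL1 had 0.50. P3H2 had an r between -0.15 and 0.24 with each of the other 6.

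Relatives of the 7 genes by protein family or pathway were tested for the mean response to differentiation over all 32 libraries. Among all genes, 12.4% were called higher and 14.8% lower, and 12 of the relatives were called higher and 22 lower, from 7 lists of which 7 to 18 genes each were tested. The called relatives with the largest rise and the largest fall of each list were fixed to be named, and the others named below were chosen after their values were seen. In the serine protease list, 4 of the 7 tested fell and none rose, with a median log2 difference of -1.44. PRSS23, another secreted protease of the trypsin family, fell by 1.44 (adjusted p = 1.70e-05), and the largest fall was that of HTRA3, a secreted protease, from 671 to 3294 in preadipocytes to 29.7 to 904 after differentiation (-3.25 ± 0.35, limma adjusted p = 5.53e-08). FAP, most like COLEC12 within groups, fell by 3.24 ± 0.30 (adjusted p = 3.18e-09).

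None of the genes listed as carboxypeptidase relatives of CPM rose. The list also holds CPPED1 (38.0 to 287 before, 16.7 to 90.5 after), which is not a carboxypeptidase, so its count and median are not those of carboxypeptidases alone. Of the 9 tested, 5 fell, with a median of -1.46, in the direction opposite to CPM. The largest fall was that of CPXM2, a family member without known peptidase activity, from 164 to 2821 in preadipocytes to 1.55 to 217 after differentiation (-5.14 ± 0.56, limma adjusted p = 5.76e-08).

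Of the 15 sorting receptor and retromer genes tested, none rose and 2 fell, with a median of -0.02. The largest fall was that of SORT1 (sortilin), a sorting receptor of the same VPS10 domain family as SORL1, which fell by 1.19 ± 0.18 (limma adjusted p = 5.45e-06, 813 to 2161 before and 298 to 1241 after). The retromer subunits VPS35, VPS26A, VPS26B and VPS29 had differences between -0.03 and 0.17 and were not called.

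Of the 11 scavenger receptors tested, 3 rose and 3 fell. The largest rise was that of CD36, the fatty acid receptor of adipocytes (6.72 ± 0.61, limma adjusted p = 3.19e-09, 0 to 192 before and 41.6 to 9386 after). The largest fall was that of OLR1, a receptor for oxidized lipoprotein, at a low level (-1.33 ± 0.49, adjusted p = 0.0360, 0 to 54.4 before and 0 to 5.67 after). The listed scavenger receptors SCARA3 and SCARA5 had medians that moved in opposite directions, from 1513 to 632 and from 45.5 to 335. COLEC10, COLEC11 and MARCO, also relatives of COLEC12, were not analysed here.

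Of the 10 Hedgehog pathway genes tested with SCUBE2, 2 rose and 2 fell. The Hedgehog receptor PTCH1 rose (1.63 ± 0.43, limma adjusted p = 0.00417), and the co-receptor BOC fell (-1.13 ± 0.34, adjusted p = 0.0117, 72.2 to 348 before and 24.2 to 581 after). DISP1, which works with SCUBE2 in Hedgehog release, fell by 0.84 ± 0.24 (adjusted p = 0.00797). The ligands SHH, IHH and DHH and the factor GLI1 did not pass the filter on low values, nor did SCUBE1, and SCUBE3 had 0.31 ± 0.45 (adjusted p = 0.659).

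Of the 18 collagen hydroxylation and type IV collagen genes tested, 4 rose and 2 fell. The 4 that rose were collagen IV chains, the substrate family of P3H2. COL4A5 had the largest rise (2.91 ± 0.72, limma adjusted p = 0.00237, 0 to 183 before and 5.89 to 474 after). The others were COL4A1 (2.53 ± 0.38), COL4A2 (2.32 ± 0.35) and COL4A3 (1.59 ± 0.56). COL4A3 was at a low level, with medians of 1.08 before and 1.95 after and a highest value of 188 after. COL4A6, a further collagen IV chain, was not called as higher (medians 1.04 before and 5.76 after). The prolyl 3-hydroxylases P3H1 and P3H3 were not called, at -0.38 ± 0.15 (limma adjusted p = 0.0548) and -0.29 ± 0.20 (adjusted p = 0.285). P3H4, a family member by name that is not counted here as an enzyme, had the largest fall of the list. It fell by 1.45 ± 0.22 (limma adjusted p = 1.18e-05, 1093 to 5361 before and 358 to 1822 after).

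Of the 17 protein 4.1 and membrane skeleton genes tested with EPB41L3, 3 rose and 4 fell. Within the protein 4.1 family EPB41L4A (-2.04 ± 0.26, limma adjusted p = 8.08e-07, 272 to 879 before and 29.3 to 420 after), EPB41L1 (-1.51 ± 0.23) and EPB41L4B (-1.07 ± 0.26) fell, while EPB41 had -0.01 ± 0.26 and was not called. The largest rise was that of the cell adhesion molecule CADM2, at a low level (2.97 ± 0.45, adjusted p = 9.26e-06, 0 to 7.58 before and 0 to 57.7 after). The members of these lists were chosen by family and pathway, and the counts are a description beside the share of all genes.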

How the data were processed

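The authors checked reads with FastQC (0.11.9 in the submitters' processing notes), dropped those whose mean Phred quality was under 34, quantified transcripts of Oar_rambouillet_v1.0 (Ensembl) with Salmon and normalized them with DESeq2. The deposited signal values are these normalized reads per transcript, not whole numbers, with authors' group means beside them. The fold change score and p-value columns hold the authors' own comparisons and were not read. Promoter and protein sequences were not analysed here.

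Values were summed per gene ID and fitted with limma 3.58.1 (R 4.3.3, trend) on log2(value + 1), which understates the change of low genes, for genes at 10 or more in 4 or more libraries. A call needed a Benjamini-Hochberg adjusted p below 0.05 over all genes of the fit and a fold change above 1.5, except for the ADIPOQ and span slope terms, which needed the p alone. Count models were not used, because the values are not counts. The fit was tested on simulated data. Depth is approximate and sets the precision of low values. Named were the 7 genes, the called relative with the largest rise and fall in each list, the 2 genes most alike to each gene, and the smallest p of each family of tests. The result of 1 relative is not reported here. Members and lists were chosen with earlier results of these data known. Alternatives were another pseudocount, quantile normalization, other filters, a single fit of all groups, a replicate block, the span slope as a covariate and each library left out. Libraries with the same number in preadipocytes and differentiated cells deviated together in MC (correlations from 0.162 to 0.615), FC (0.303 to 0.508) and MFGR (0.393 to 0.671), but not all in FFGR (-0.398 to 0.565). The own number was the best match in 13 of 16, a pairing taken from these data and not from the labels, and the fits without it were kept as the main ones.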

Additional observations from a re-analysis of the deposited data

Results flagged for a closer look

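In 7 of 56 groups of 4 libraries, 1 library stood apart from the other 3 by a gap above the 95% critical value of Dixon for the range of the group. Chance gives this in about 1 in 20 groups of normally distributed values. The rule was applied to normalized reads without logarithms, which are skewed, so that this rate may not hold. Whether 7 of 56 is an excess can therefore not be judged. PRSS35 was low in MC replicate 2, at 4318 normalized reads against 11360 to 12480 in the other MC libraries. It was high in MCD replicate 1, at 1653 against 8.12 to 27.7, and in FFGRD replicate 4, at 443.7 against 7.08 to 68.8. MCD replicate 1 also stood apart for EPB41L3, at 76.52 against 3.48 to 14.7. COLEC12 was high in MFGRD replicate 4, at 1943 against 138 to 253. SORL1 was high in FFGR replicate 4, at 14.31 against 0 to 1.88, and SCUBE2 in FFGR replicate 3, at 942.9 against 43.2 to 130.0. The cause was not tested.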

How the results depend on the processing

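No gene of the 7 was called for growth restriction, sex or difference in response in 380 refits, which called 0 genes in all except 1 gene without a filter (the response of MFGR against FFGR) and 2 genes between MFGR and FFGR without FFGR replicate 4. For the transcripts, the response of FFGR against that of FC held 0 to 1 calls when each library was left out in turn. Of 398 refitted responses to differentiation 397 moved by less than 1 SD and 0 reversed. SORL1 between FCD and FC went from 6.36 to 8.28 with a pseudocount of 0.1. For PRSS35, the span slope as a covariate gave -2.43 between MCD and FCD and -3.03 for the response of MC against FC. Relatives called higher were 11 to 14 and lower 20 to 29 over all settings. Genes related to the span slope were 4 or 5 of the 7, and to ADIPOQ 0. With a replicate block, which pairs the stages by group and number in the tests of response, none of the 7 genes was called in any of the 18 comparisons (0 each), PRSS35 had an adjusted p of 0.548 in the response of MC against FC, and 14 relatives were called higher and 29 lower. Across conditions or sexes the correlations of same-numbered libraries ranged from -0.583 to 0.763, and libraries there share only a number. The span slope covariate for the relatives and ADIPOQ was chosen after seeing the data. Levels under 10 normalized reads rest on few reads.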
